A study of Drosophila melanogaster with 4 samples.

Results

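The H1-enriched regions of the interior of chromosome arm 2L are described here, in head nuclei of adult Drosophila melanogaster. They are the regions, called clusters, that lie wholly between 1 and 21 Mb of 2L (FlyBase release 5), so that 1 Mb at the telomere side and about 2 Mb at the centromere side are left out. The combined list of the replicate set holds 2646 such clusters, of 3001 on 2L and 15736 in all. The same window holds 425 of the 2771 clusters of ChIP replicate 1 and 420 of the 2922 clusters of ChIP replicate 2. No cluster of any list crosses an edge of the window.

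The series holds 2 H1 ChIP samples and 2 input samples, each input tied by its label to the ChIP sample of the same number. All 4 are wild-type Oregon-R flies of the stage given as mixed adult, grown in population cages, with heads collected by sieving, fixed with formaldehyde and sonicated. Neither the sex nor whether the flies of each replicate were collected separately is given, so the spread between replicates may be technical. Heads mix neurons, glia, photoreceptors, fat body and other cells, and the lists are an average over them. No file used here holds a marker against which the tissue could be checked.

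Histone H1 is the linker histone. It sits on the outside of the nucleosome at the entry and exit of the DNA, lengthens the stretch of DNA protected by each nucleosome and favours the folding of arrays into more compact fibres. In flies it is found along the arms as well as in heterochromatin, where it is needed for normal pericentric organisation, and it is generally low at the starts of active genes. Arm interiors such as this one are mostly euchromatin and carry most of the genes of the arm.

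H1 clusters were frequent, short and weakly enriched in the 2L interior. In the combined list they covered 4.87 Mb, or 24.3% of the window, with 13.2 clusters per 100 kb. Replicate 1 alone covered 3.58% of the window and replicate 2 alone covered 3.49%, a mean of 3.54% ± 0.0663 (SD, n = 2 replicates). The combined list covered several times as much as either replicate, so its clusters are set beside those of the replicates throughout. Sequencing depth is unknown, and the single ChIP group allows no comparison of conditions.

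Many combined clusters were close to the shortest length in the list. The median length was 1549.5 bp, the middle 50% ran from 1173 to 2072 bp, and 483 clusters (18.3%) lay within 100 bp of the shortest, at 1001 bp. Clusters of 3 kb or more numbered 288, which was 10.9% of the clusters and 24.2% of their bases, and 42 reached 5 kb. The replicates had medians of 1559 bp in replicate 1 and 1518.5 bp in replicate 2, with shortest clusters of 1302 and 1301 bp. In both replicates about the same share sat at that floor, 27.5% in replicate 1 and 27.6% in replicate 2 within 100 bp of it.

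Enrichment varied little among the members. The score is the authors' value for each cluster, with no name in the files. Its values were read as a log2 enrichment of ChIP over input, and it is given here as a fold, 2 raised to the score. The median was 1.34-fold in the combined list, with 5% of clusters below 1.27-fold and 5% above 1.42-fold. In replicate 1 the median was 1.56-fold and in replicate 2 it was 1.504-fold. Levels differ between the lists as a whole, so folds of different lists at 1 place are given side by side and their difference is not read as one in H1. A fold of 1.5 or more was reached by 30 of the 2646 combined clusters, and a fold of 2 or more by 4. Length and score were hardly related across combined clusters (Spearman's rho = -0.02, Pearson's r = 0.07), and were related in replicate 1 (rho = 0.38, r = 0.30) and replicate 2 (rho = 0.29, r = 0.20). These correlations describe clusters of 1 list, which share a library and a caller, and carry no test.

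**Figure D1:**
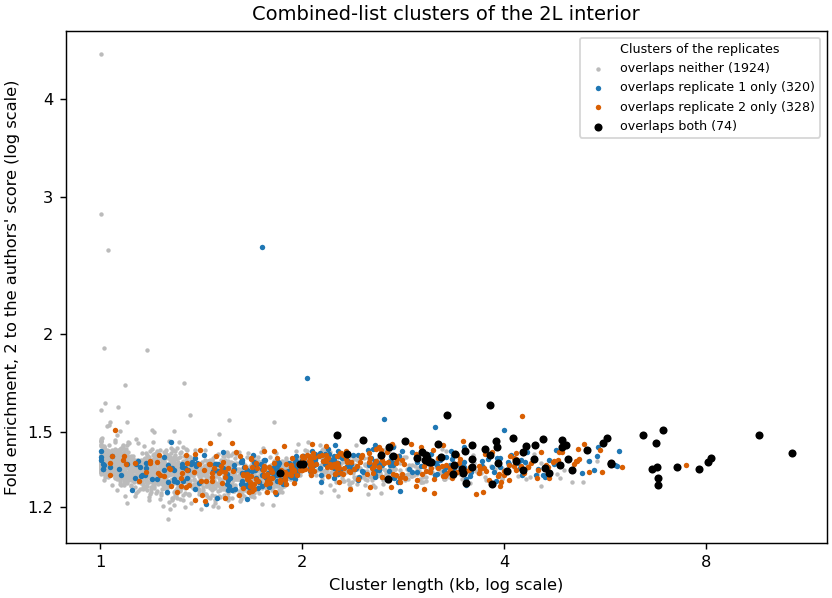
Each point is 1 of the 2646 combined-list clusters of the 2L interior, by length (kb, log scale) and fold enrichment (log scale), coloured by which replicate lists it overlaps. Long clusters overlap both replicates more often than short ones, and the 4 clusters above 2-fold are all shorter than 2 kb.

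Clusters of the combined list stood close together, and clusters of the replicates far apart. The median gap between neighbours was 2097 bp in the combined list, 24299.5 bp in replicate 1 and 18991 bp in replicate 2. Of the 2645 gaps in the combined list, 499 (18.9%) were under 500 bp and 1288 (48.7%) were at most 2 kb. At the other end, 34 gaps of 50 kb or more together made up 12.4% of the window. In the replicates such gaps made up most of it, 72.8% in replicate 1 by 135 gaps and 73.8% in replicate 2 by 108 gaps.

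**Figure D2:**
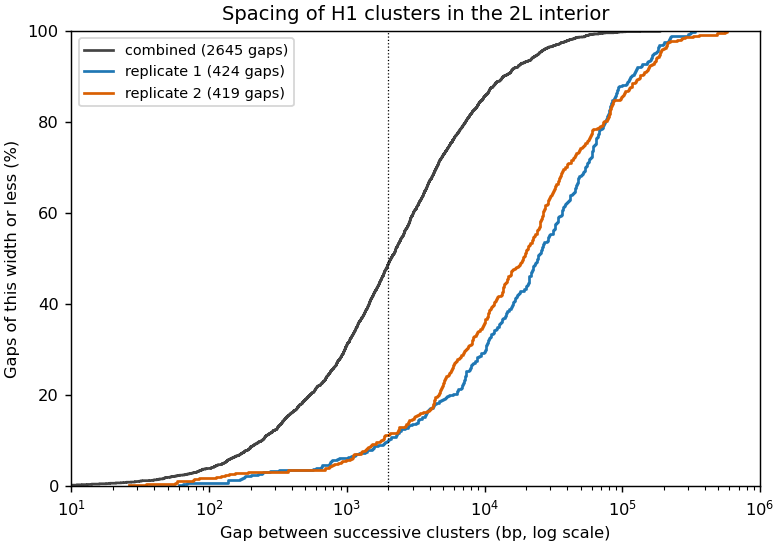
Cumulative share of gaps (%) against the width of the gap between successive clusters (bp, log scale) for the 3 lists, with the chain limit of 2000 bp as a dotted line. The curve of the combined list lies far left of the replicates, with 48.7% of its gaps at 2 kb or less.

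Many clusters formed chains, here successive clusters separated by at most 2000 bp. In the combined list 1891 of 2646 clusters (71.5%, 95% Wilson interval 69.7 to 73.2) were in 603 chains, with a median span of 5898 bp. Chains of 5 or more clusters numbered 98 and held 606 clusters. In the replicates 19.1% of clusters (15.6 to 23.1) were in chains in replicate 1 and 20.2% (16.7 to 24.3) in replicate 2, and no chain had more than 4 clusters. The share in chains depends on the number of clusters in a list, so these shares were not compared. Neighbours enter a chain together, so clusters are not independent here and the intervals do not give the precision of the shares.

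The 5 longest chains each spanned more than 30 kb. The longest ran from 1467730 to 1500588, with 9 clusters over 32859 bp, of which 82.7% were in clusters. Replicate 1 covered 22.5% of that span and replicate 2 covered 15.3%. The next ran from 16755045 to 16787690 with 11 clusters, and replicates 1 and 2 covered 19.2% and 9.22% of it. The chain at 4558019 to 4590258 was the most filled, with 88.9% of its 32240 bp in 7 clusters, and was covered to 16.7% in replicate 1 and 18.7% in replicate 2. The chain at 17068653 to 17100060 had the most clusters, 13 over 31408 bp, but was covered to 11.3% in replicate 1 and 4.16% in replicate 2. The remaining one, at 15395486 to 15426056, had 8 clusters and was covered to 9.41% and 23.6% in replicates 1 and 2. Both replicates had clusters in all 5 chains, and in 3 of them the clusters of the replicates had no base in common. The chains were picked from a list made from the same replicates, so the presence of replicate clusters in them is not independent of the choice. Over the window, 14.8% of replicate 1 clusters and 15.0% of replicate 2 clusters met the other replicate at all, beside 13.8% and 17.5% on all main arms. These are shares of single clusters and give no baseline for spans of 30 kb.

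Clusters were spread unevenly over the 200 bins of 100 kb. In the combined list the coverage of a bin averaged 24.3% ± 13.9 (SD, n = 200 bins), with a median of 22.7% and a highest value of 64.1%. The number of clusters per bin had a variance 3.32 times its mean. That ratio was 1.43 in replicate 1 and 2.35 in replicate 2. The 20 most covered bins held 21.0% of the cluster bases in the combined list, 28.6% in replicate 1 and 35.7% in replicate 2. Replicate 2 was the more patchy by these measures, and its variance over mean was also the higher one on the interiors of 3L (1.97 in replicate 2, 1.31 in replicate 1) and 3R (2.80 and 1.54). Neighbouring bins resembled each other in the combined list (correlation of coverage at a distance of 1 bin 0.35, at 2 bins 0.14) and in replicate 2 (0.32 and 0.12), and little in replicate 1 (0.08 and 0.07).

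**Figure D3:**
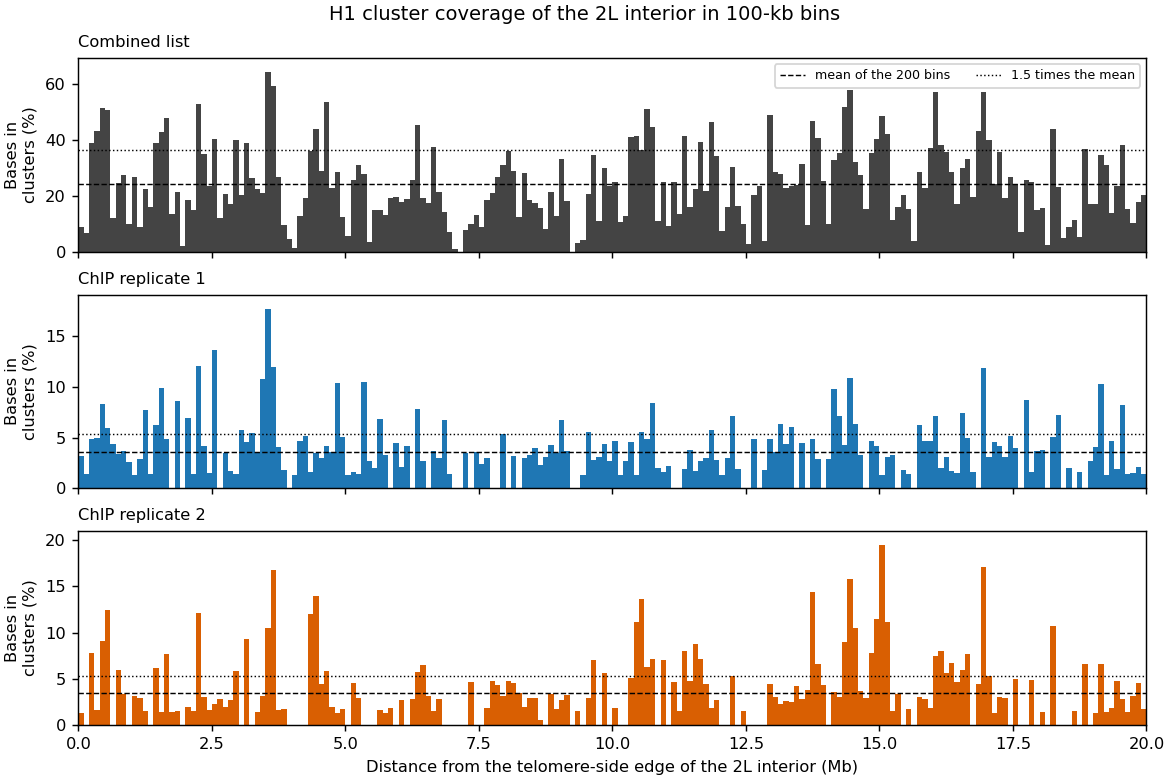
Coverage by H1 clusters (% of bases) in 200 bins of 100 kb along the 2L interior, in the combined list and each ChIP replicate, with the mean of the bins and 1.5 times the mean as lines. Peaks near 3.5, 14.4 and 16.9 Mb from the telomere-side edge appear in all 3 lists, and the deepest troughs lie near 7 and 9 Mb from it.

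Dense bins, those with at least 1.5 times the mean of their list, numbered 41 in the combined list (coverage of at least 36.5%), 39 in replicate 1 and 47 in replicate 2. The 41 dense bins of the combined list held 38.3% of its cluster bases. Dense bins had more clusters and also longer ones. There were 22.4 clusters per bin with a median length of 1666 bp in dense bins, against 13.0 per bin and 1518 bp in bins between the limits, and 4.48 per bin and 1250 bp in sparse bins. Sparse bins are the 40 with at most 0.5 times the mean, a coverage of at most 12.2%. Fold enrichment hardly differed between these classes, with medians of 1.35, 1.34 and 1.35 in dense, between and sparse bins. Dense and sparse were set by coverage, so the number and length of clusters are a description of what made up the coverage.

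The most covered stretch was from 4.5 to 4.7 Mb, where the leading 2 bins of the combined list are neighbours. The bin from 4.5 to 4.6 Mb had 64.1% of its bases in 19 clusters, and the bin from 4.6 to 4.7 Mb had 59.3% in 20 clusters. The first bin was covered to 17.7% in replicate 1, the highest of all 200 bins, and to 10.5% in replicate 2. The second was covered to 11.9% in replicate 1 and to 16.7% in replicate 2. Both bins were thus dense in each replicate. The stretch held 4.13% of the cluster bases of replicate 1, 3.91% of those of replicate 2 and 11.5% of the bases that the replicates had in common, 7.75 kb. It was picked from a list made from the same replicates, so their density there is not independent of the choice.

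The other 8 of the 10 most covered bins lay in several places along the arm. The bin from 15.4 to 15.5 Mb had 57.8% in the combined list, with 10.9% in replicate 1 and 15.8% in replicate 2. The bin from 17.9 to 18.0 Mb had 57.2% in the combined list, with 11.8% in replicate 1 and 17.1% in replicate 2. The bin from 3.2 to 3.3 Mb had 53.0% in the combined list and nearly equal values of 12.1% in both replicates. These 3 bins ranked among the 10 most covered in both replicates. The bins from 17.0 to 17.1 Mb (57.0% in the combined list) and from 1.4 to 1.5 Mb (51.3%) were dense in both replicates as well, at 7.12% and 8.29% in replicate 1 and 7.50% and 9.07% in replicate 2. The other 3 were not dense in replicate 1. They lay from 5.6 to 5.7 Mb, from 15.3 to 15.4 Mb and from 11.6 to 11.7 Mb, and had 4.16%, 4.27% and 4.82% in replicate 1 but 5.88%, 8.93% and 6.25% in replicate 2, where they were dense.

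Some stretches were dense in 1 replicate and not in the other. These were chosen after their values were seen. From 15.9 to 16.2 Mb, 3 neighbouring bins averaged 14.0% in replicate 2, with 25 clusters, and 2.85% in replicate 1, with 6 clusters. The bin from 16.0 to 16.1 Mb was the most covered of replicate 2, at 19.5% in 12 clusters, and had 1 cluster and 1.32% in replicate 1. The combined list gave that bin 48.4%. In the other direction, the bin from 3.5 to 3.6 Mb had 13.6% in 8 clusters of replicate 1 and 2.22% in 1 cluster of replicate 2, and the combined list gave it 40.3%. In both places the combined list was dense where the clusters of a single replicate were.

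Empty stretches were few in the combined list and common in the replicates. The combined list had 2 bins with no cluster base, from 8.1 to 8.2 Mb and from 10.2 to 10.3 Mb. Replicate 1 had 33 empty bins (16.5%) and replicate 2 had 54 (27.0%). In 11 bins both replicates were empty, which is 33.3% of the empty bins of replicate 1 and 20.4% of those of replicate 2. In 10 of these 11 bins the combined list had from 0% to 7.02%. The exception was the bin from 13.7 to 13.8 Mb, where it had 23.6% in 15 clusters although neither replicate had any.

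The widest gaps of the combined list fell in places where the replicates had no cluster either. The widest, from 8053041 to 8241958, measured 188918 bp. The gap from 7945840 to 8051952, of 106113 bp, adjoined it with a single cluster of 1088 bp between them. The others of the 5 widest were from 10191318 to 10325122 (133805 bp), from 4926160 to 5027166 (101007 bp) and from 12455092 to 12549809 (94718 bp). None of these 5 gaps held any base of a cluster of replicate 1 or replicate 2. The combined list was made from the same replicates, so this is not independent of them. The files do not say which bases reads could be aligned to, and whether a gap holds bases that could not be aligned was not tested.

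Around the widest gaps, the replicates showed broad sparse stretches of their own. The widest gap of replicate 2 ran from 7762746 to 8335156, over 572.4 kb, and replicate 1 had 8 clusters in it, covering 2.31%. Another of the 5 widest gaps of replicate 1, from 7943564 to 8246068, held no cluster of replicate 2 and 5 of the combined list. The widest gap of replicate 1 ran from 10125578 to 10461111, over 335.5 kb, and replicate 2 had 3 clusters in it, covering 1.41%. In the combined list, 5 sparse bins in a row from 7.9 to 8.4 Mb averaged 5.21%, and 3 in a row from 10.2 to 10.5 Mb averaged 2.41%. Other sparse runs of 3 or more bins were from 19.4 to 19.8 Mb, at 7.72%, and from 4.8 to 5.1 Mb, at 5.21%. The run from 4.8 Mb starts 100 kb from the most covered stretch of the window, so the extremes of coverage were near neighbours there.

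The dense and empty bins of 1 replicate were then read in the other. In the 39 bins that were dense in replicate 1, replicate 2 covered 5.15% ± 5.02 (SD over bins), against 3.09% ± 3.38 in the other 161 bins. In the 47 bins that were dense in replicate 2, replicate 1 covered 5.15% ± 3.56, against 3.10% ± 2.65 in the other 153 bins. The means were higher in the dense bins in both directions, and the spreads over bins overlapped widely. In the bins that were empty in replicate 1, replicate 2 covered 2.24%, against 3.74% in the others, and in those empty in replicate 2, replicate 1 covered 2.66%, against 3.92% in the others. Across all 200 bins, coverage of the replicates was weakly related (Spearman's rho = 0.22, Pearson's r = 0.30). The bins share libraries and are not independent replicates, so the correlation is given without a test.

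Of the dense bins, 16 were dense in both replicates, which is 41.0% of those of replicate 1 and 34.0% of those of replicate 2, where 23.5% of all bins were dense in replicate 2 and 19.5% in replicate 1. They lay along the whole arm, from 1.4 to 20.2 Mb, with 30.1% to 64.1% coverage in the combined list. Neighbouring pairs among them were from 1.4 to 1.6 Mb, from 4.5 to 4.7 Mb and from 15.4 to 15.6 Mb. In the combined list 11 of the 16 were dense too, where 41 of all 200 bins were dense. The combined list was made from the same replicates, so this is not independent of them.

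**Figure D4:**
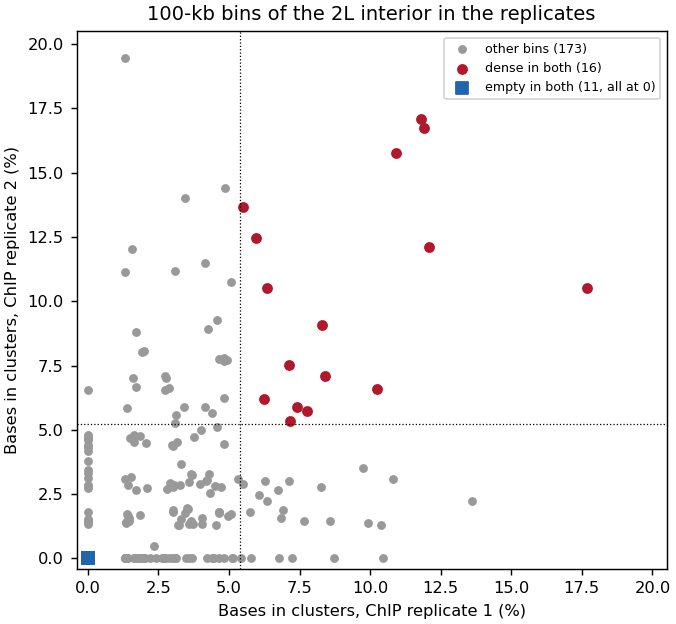
Coverage (% of bases) of each of the 200 bins of 100 kb in replicate 1 (horizontal) and replicate 2 (vertical), with dotted lines at 1.5 times the mean of each replicate. Of the 200 bins, 16 are dense in both (upper right) and 11 are empty in both (at the origin), and many bins are covered in 1 replicate and at or near 0 in the other.

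Over windows of 1 Mb the combined list ranged from 13.8% (8 to 9 Mb) to 36.0% (17 to 18 Mb). The mean of the replicates was highest from 15 to 16 Mb, at 6.04% ± 0.996 (SD, n = 2 replicates), with 5.34% in replicate 1 and 6.75% in replicate 2. It was next highest from 4 to 5 Mb, with 6.57% in replicate 1 and 4.42% in replicate 2, and from 17 to 18 Mb, with 4.12% and 6.76%. The lowest were from 13 to 14 Mb, with 2.48% and 1.13% in replicates 1 and 2, and from 8 to 9 Mb, with 1.78% and 1.87%. In the windows from 15 to 16 Mb and 4 to 5 Mb both replicates lay above both values of the 2 lowest windows. The windows were picked by the mean of these same replicates, so this is not independent of the choice. The relation of the replicates was closer at this scale (rho = 0.47, r = 0.50, n = 20 windows).

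Coverage did not follow position along the window in a way that the replicates shared. The correlation of 1-Mb coverage with distance from the centromere side was 0.39 in replicate 1 and -0.10 in replicate 2 (Spearman's rho, n = 20 windows, no test). It was 0.15 for the mean of the replicates, 0.065 without the 2 end windows (n = 18), and 0.03 in the combined list.

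Cluster by cluster, few clusters of the replicates met. In the 2L interior, 63 of the 425 replicate 1 clusters met one of replicate 2 (14.8%, interval 11.8 to 18.5), beside 13.8% on all main arms. In the other direction it was 63 of 420 (15.0%, 11.9 to 18.7), beside 17.5% on all main arms. Both shares were near those of the main arms together, so they say nothing particular about the 2L interior. The bases in both lists came to 67.1 kb, which is 9.37% of the cluster bases of replicate 1 and 9.62% of those of replicate 2. Overlapping clusters were longer. In replicate 1 their mean was 1846 bp ± 659.9 (SD, n = 63), against 1658 bp ± 373 for the other 362. In replicate 2 it was 1888 bp ± 748, against 1621 bp ± 354 for the other 357. Longer clusters offer more bases to overlap, and the part of that in these lengths was not tested. Scores of the overlapping clusters averaged 0.65 and those of the others 0.65 in replicate 1, and 0.60 and 0.59 in replicate 2, on the log2 scale.

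The overlaps made 65 pairs of clusters, with a median of 1155 bp in common, and 38 pairs shared at least 1000 bp. The middles of the clusters lay a median of 714 bp apart, a distance that overlap itself keeps short. Replicate 1 had the higher fold in 48 of the 65 pairs, and the median of its whole list in the window was the higher one too. Across the pairs, the correlation of the scores was near 0 (Spearman's rho = 0.03, Pearson's r = 0.08).

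The 10 pairs with the most common bases shared from 1512 to 2639 bp. The leading pair was at 14762289 to 14765572 in replicate 1 (1.64-fold) and at 14762465 to 14765103 in replicate 2 (1.55-fold), so that the cluster of replicate 2 lay wholly inside that of replicate 1. The closest match in position ranked 2, at 1817796 to 1819802 in replicate 1 (1.60-fold) and 1817795 to 1819762 in replicate 2 (1.53-fold), with starts 1 bp apart. The pair ranked 3, at 11570684 to 11572444 in replicate 1 and 11570252 to 11572939 in replicate 2, had 1.61-fold in both. The pair with the highest fold in replicate 1 among the 10 was at 9975590 to 9979045, with 1.85-fold, and its partner in replicate 2 at 9976077 to 9977827 had 1.54-fold. Of the 10 pairs, 3 lay from 4.4 to 4.7 Mb, in or beside the most covered stretch. They began at 4489223, 4619304 and 4623513 in replicate 1. The other pairs began at 17184584, 11542655 and 20180715 in replicate 1. In the pair at 11542655, the cluster of replicate 2 was 5968 bp long, the longest of that replicate in the window, and the folds were among the lower ones, at 1.31 in replicate 1 and 1.38 in replicate 2.

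The combined list took in nearly all replicate clusters of the window. It overlapped 94.8% of the clusters of replicate 1 (92.3 to 96.6), beside 93.5% on all main arms, and 97.6% of those of replicate 2 (95.7 to 98.7), beside 97.3%. Of its own 2646 clusters, 74 (2.80%, 2.23 to 3.50) overlapped clusters of both replicates, beside 2.84% on all main arms. Another 320 (12.1%) overlapped replicate 1 alone and 328 (12.4%) overlapped replicate 2 alone. The remaining 1924 (72.7%, 71.0 to 74.4) overlapped neither, beside 72.1% on all main arms.

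Overlap with the replicates went with length. The 74 combined clusters that overlapped clusters of both replicates measured 3898.5 bp at the median, with 1.39-fold enrichment. Replicate clusters that meet the same combined cluster need not meet each other. Those that overlapped neither had 1338 bp and 1.34-fold. By length, 94.2% of the 954 clusters of at most 1300 bp, which no replicate cluster is as short as, overlapped neither. That share was 74.8% from 1301 to 2000 bp, 51.9% from 2001 to 3000 bp, 28.2% from 3001 to 5000 bp and 9.52% of the 42 longer ones. Among those 42, 19 (45.2%) overlapped both. Longer regions offer more bases to overlap, and the part of that in these shares was not tested.

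The 10 longest combined clusters measured from 6794 to 10754 bp, and 4 of them lay from 4.5 to 4.7 Mb. The longest, at 4631775 to 4642528, had 1.41-fold, and clusters of replicate 1 covered 35.4% of it and those of replicate 2 covered 44.3%. Its neighbour at 4617785 to 4627369 (9585 bp, 1.49-fold) was covered to 52.9% in replicate 1 and 37.4% in replicate 2, with 3269 bp in both. The others in that stretch were at 4582197 to 4590258 (8062 bp) and 4519050 to 4525954 (6905 bp). The last was covered to 81.7% in replicate 1 and 23.6% in replicate 2 and had the highest fold of the 10, at 1.51. Beyond that stretch, the longest was at 3267374 to 3275502 (8129 bp, 1.39-fold), which replicate 2 covered to 62.7% and replicate 1 to 22.4%. The remaining 5 lay at 15481834 to 15489644, 9099130 to 9106593, 5484455 to 5491709, 17634548 to 17641345 and 11541580 to 11548373, with folds from 1.28 to 1.36. Of the 10, 9 overlapped both replicates and 6 had bases in which the replicates overlapped each other. The share that overlapped both was 2.80% over all members and 45.2% over the 42 clusters of 5001 bp or more. The 10 were picked by length from a list made from the same replicates, so their overlap is not independent of the choice. The cluster at 9099130, which did not overlap both, was covered to 59.5% in replicate 2 and held no cluster of replicate 1. The next longest cluster outside this set measured 6767 bp.

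The 10 highest-scoring combined clusters measured from 1001 to 2030 bp, and 7 of them were shorter than any replicate cluster. Of the 10, 8 overlapped no cluster of either replicate, where the share was 72.7% over all members and 94.2% over those of at most 1300 bp. The highest, at 16513788 to 16514790, had 4.56-fold. The next was at 5182214 to 5183214, with 2.85-fold. Neither was in a replicate list. The one ranked 3, at 4667388 to 4669127, had 2.58-fold in the combined list. It matched a cluster of replicate 1 at 4667393 to 4669131 with 4.99-fold, the highest of that replicate in the window, and replicate 2 had none there, its nearest being 9974 bp away. The one ranked 4, at 4661666 to 4662690, had 2.57-fold and lay nearby, in the same bin as the one ranked 3. The one ranked 7, at 20190720 to 20192749 (1.76-fold), matched the cluster ranked 2 by fold in replicate 1, 2.30-fold, at 20190768 to 20192810. The other 5, at 15677359, 2660988, 9475094, 4065795 and 5827405 (starts), had from 1.63-fold to 1.92-fold and no replicate cluster.

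Small divisors went with these high folds. The fold of nearly every cluster, apart from 1 constant per list, is a quotient of whole numbers. The divisor, in lowest terms, can follow the number of input reads in a cluster only loosely, since shared factors lower it. It was 1, 1, 15 and 2 for the clusters ranked 1 to 4. Over the 10 its median was 13.5 per kb, against 91.2 per kb over all members of the combined list. The cluster of replicate 1 with 4.99-fold had a divisor of 2. The authors gave no such count, and the divisor comes from the same score that ranked the clusters, so its part in the high folds was not tested.

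The highest fold of replicate 2 and the fold ranked 2 in replicate 1 fell near each other, in the bin from 20.1 to 20.2 Mb, without meeting. Replicate 2 had its highest fold in the window, 2.17, at 20183787 to 20185772, and another of its 5 highest, 1.78, at 20180548 to 20183010. Replicate 1 had 2.30-fold at 20190768 to 20192810, which is 4995 bp beyond the first of these, and 1.53-fold at 20180715 to 20182226, inside the second. That bin was dense in both, with 10.2% in replicate 1 and 6.57% in replicate 2.

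The coverage of the 2L interior lay close to that of the interiors of 3L (1 to 22 Mb) and 3R (2 to 26 Mb). Coverage in the combined list was 24.3% in the 2L interior, against 22.9% in that of 3L and 24.4% in that of 3R. In the replicates it averaged 3.54% ± 0.0663 in the 2L interior, against 3.25% ± 0.399 in that of 3L and 3.97% ± 0.906 in that of 3R (SD, n = 2 replicates). The difference of 2L from 3L was 0.284 points ± 0.333 and that from 3R was -0.43 points ± 0.84. Both lay within the spread between replicates, and against 3R the sign differed between them, at -1.02 points in replicate 1 and 0.164 points in replicate 2. The 2L interior was the one in which the replicates were most alike in coverage, with 3.58% and 3.49%, against 3.53% and 2.97% on 3L and 4.61% and 3.33% on 3R (replicates 1 and 2). This was noticed after the values were seen and was not tested.

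Spacing and density were close as well, with no test of the differences. The median gap of the combined list was 2097 bp in the 2L interior, against 2242 bp in that of 3L and 2070 bp in that of 3R, and the median fold was 1.34 in each. Variance over mean per bin was 3.32, against 3.22 and 3.40. Replicate overlap was less alike between the arms. The share of clusters of replicate 1 that overlapped replicate 2 was 14.8%, against 9.51% on 3L and 15.4% on 3R. That of replicate 2 was 15.0%, against 11.96% on 3L and 21.9% on 3R. Such shares can depend on the coverage of the other list, which differed between the arms as given above, and its part was not tested. Against the X interior (1 to 20 Mb), the 2L interior was covered to 24.3% and X to 6.92% in the combined list, and in the replicates 2L to 3.54% ± 0.0663 and X to 0.681% ± 0.202. The difference from X, 2.85 points ± 0.136 (SD, n = 2 replicates), was larger than that spread. Clusters of X had the higher folds, with a median of 1.48 on X against 1.34 on 2L in the combined list. In replicate 1 it was 1.82 against 1.56, and in replicate 2 it was 1.67 against 1.504. Sex and depth are unknown, so the lower coverage of X is not read as less H1, and its cause was not tested.

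**Figure D5:**
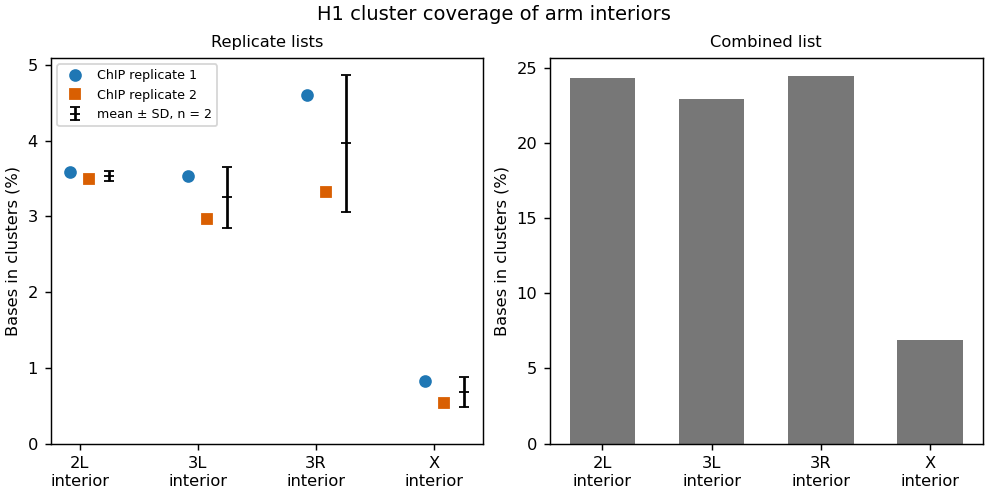
Coverage by H1 clusters (% of bases) of the interiors of 2L, 3L, 3R and X in the ChIP replicates (left, points, with mean ± SD, n = 2) and in the combined list (right, bars). The 2L interior, at 3.58% and 3.49%, lies between the lowest (2.97%) and highest (4.61%) values of 3L and 3R and far above X.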

How the data were processed

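H1 ChIP-seq of head nuclei gave 3 deposited lists of enriched regions, 1 per ChIP replicate and 1 for the replicate set. The 2 input samples have no list of their own. The submitters' processing notes name Bowtie 0.12.7 as the aligner. Regions were called and replicates combined by methods not given in the sources used here. Positions are FlyBase release 5, per the file headers. Each region carries 1 deposited score without a name, read here as a log2 enrichment from the values: as powers of 2, 99.96% of the combined scores and all replicate scores were a whole number over a whole number of at most 2000, times 1 constant per list (relative tolerance 1e-12). Fold enrichment is 2 raised to that score. Library depth is unknown.

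Regions of 2L with start at or above 1000001 and end at or below 21000000 were taken in each list. Gaps, chains (gaps of at most 2000 bp), coverage in bins of 100 kb and overlap (at least 1 bp) were computed in Python 3.11.15 with numpy 2.4.6, pandas 2.3.3 and scipy 1.17.1, after tests on simulated regions. Intervals of shares are Wilson intervals at 95% and hold counting error alone. Named regions follow a rule: the 10 longest and 10 highest-scoring clusters, 5 longest chains, 5 widest gaps, 10 most covered bins, empty bins and 10 replicate pairs with the most common bases. Regions outside it were chosen after their values were seen. The members and rules were chosen with earlier results of these data known. With 1 ChIP group of 2 replicates, no test was run. Genes and sequences were not used here, since the gene table is of release 6. Alternatives changed the score or length filter, bin size and start, the dense threshold, chain gap, overlap, arm ends and replicate.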

Additional observations from a re-analysis of the deposited data

How the results depend on the processing

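Of 62 alternative values for 18 results, 20 moved by less than their error. The other 42 moved further, or by 1.5 times or more for counts, or belong to results with no error of their own (combined coverage, median gap, variance over mean and rho of bin coverage), for which any change, however small, is given below. For shares the error was the Wilson interval over clusters or bins, which does not measure the effect of a setting. Among the 20 is the share of dense bins of replicate 1 that were dense in replicate 2. It went from 41.0% to 33.3% at 2 times the mean and to 35.4% with bins shifted by 50 kb. Values without 1 replicate are among the 20, but their error was the SD of the same 2 replicates. Mean coverage could not move beyond that SD, so its label was fixed in advance. The rho with position was counted there too, although it went from 0.15 to -0.10 without replicate 1 and to 0.39 without replicate 2. The differences of 2L from 3L and 3R moved by less than the replicate spread with the highest-scoring clusters alone and over whole arms. Depth is unknown, and aligned bases were not determined, so empty stretches cannot be told apart from stretches where reads could not be placed. No paired analysis was possible because the input samples, the only other group, have no list. Differences between arms were taken within each replicate.

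The score filter kept clusters at or above the median score of their list on the main arms, fewer by construction. It left 1183 combined clusters, 11.4% combined coverage, 1.70% mean replicate coverage and a median gap of 6110.5 bp. With it, 41.9% of clusters were in chains, 5 combined bins were empty and 24.0% of bins were empty in both replicates. The variance over mean was 2.47. Replicate overlap became 8.56% and 8.47%, and rho of bin coverage 0.22. Of the combined clusters, 1.44% overlapped both replicates and 79.0% overlapped neither. Combined clusters no shorter than any in the replicates numbered 1692, with 19.0% coverage, a median gap of 3504 bp and 57.4% in chains. They gave 5 empty bins and a variance over mean of 3.06. Of them, 4.37% overlapped both replicates and 60.6% overlapped neither.

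Bins of 50 kb gave 18 empty combined bins, 21.8% empty in both replicates, a variance over mean of 2.33 and rho = 0.25. Bins of 200 kb gave 0 empty combined bins, 1.00% empty in both, a variance over mean of 4.64, rho = 0.27 and 60.0% of the dense bins of replicate 1 dense in replicate 2. Bins shifted by 50 kb gave 1 empty combined bin and a variance over mean of 3.31. Windows of 1 Mb gave rho = 0.47. At 2 times the mean 6.00% of combined bins were dense. Chains with gaps of at most 1000 bp held 51.6% of clusters and those of at most 5000 bp held 89.5%. With 50% of a replicate cluster to be covered by the other list, replicate overlap was 8.94% and 9.29%. With clusters up to 500 bp apart it was 18.8% and 19.3%, with 3.74% of combined clusters that near both replicates and 68.7% near neither. Leaving out a replicate gave a coverage of 3.49% to 3.58% and a rho with position of -0.10 to 0.39. For the other moved values the cause was not tested.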

Other observations

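A step at 2000 bp in the number of clusters was seen in the combined list. It was noticed in the data and was not tested. In the 2L interior, 150 clusters measured 1801 to 1900 bp, 117 measured 1901 to 2000 bp and 73 measured 2001 to 2100 bp. The lowest fold enrichment in these classes was 1.21, 1.29 and 1.32, and the medians were 1.32, 1.34 and 1.37. The folds did not stay higher beyond them. The lowest was 1.26 from 2101 to 2200 bp and 1.24 from 2201 to 2300 bp. The median was 1.38 and 1.36 there, and 1.34 from 2401 to 2500 bp. The interior of 3L had 154 clusters of 1901 to 2000 bp and 56 of 2001 to 2100 bp, with medians of 1.35 and 1.37. That of 3R had 162 and 60, with medians of 1.34 and 1.37. The numbers in the replicate lists of the 2L interior showed no such step in replicate 1, with 24 clusters from 1901 to 2000 bp and 24 from 2001 to 2100 bp, and were 26 and 17 in replicate 2. On 3L they were 16 and 17 in replicate 1 and 19 and 22 in replicate 2. In the replicates of the 2L interior, the lowest fold from 1901 to 2000 bp was 1.48 in replicate 1 and 1.39 in replicate 2, and from 2001 to 2100 bp it was 1.56 and 1.49. On 3R the lowest fold of replicate 1 was 1.47 in the shorter class and 1.46 in the longer one.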
